A study of Rattus norvegicus with 3 samples.

Results

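The regions described here lie in a stretch of 1100 kb of rat chromosome 9 (chr9:89400000-90500000, assembly rn4) around 2 strong regions of differential methylation, one annotated to Cops8 and one to Mlph. Every region of the deposited lists with at least 1 bp inside this interval was taken, which gave 65 of 95306 list entries. The interval was chosen by the scores of those 2 regions in the MLP lists, so all scores and counts are given as a description and none was tested. DNA methylation was profiled by MBD-seq in livers of male Wistar rats aged 1 day, grouped by the diet of the dam in pregnancy. MLP pups came from dams fed a casein diet low in protein, MLP-F pups from dams fed the same low protein diet with added folate, and C pups from dams fed the control casein diet with the same folate level as MLP. Each group was 1 library of pooled DNA, from 6 animals by the sample labels and from a larger number by the study's text, all taken from a single litter per group. With 1 library per group there is no replicate check, and litter and diet cannot be told apart.

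The MBD protein binds CpG sites that carry a methyl group, so a stretch of the genome that holds more methylated CpGs gives more captured fragments. The authors compared the libraries in pairs with MACS, a program that finds stretches where the first library has an excess of reads over the second. The 3 lists used here are MLP vs. C, MLP-F vs. C and MLP vs. MLP-F, and a listed region is one with more captured DNA in the group named first. The study itself kept far fewer regions, by a limit on the false discovery rate, the expected share of false calls. For MLP-F against C it reported no differentially methylated regions. The lists carry no such rate, so that limit was not applied here and listed regions need not have passed it. The paper refers to the deposited set as a larger collection at a looser limit. The Cops8 and Mlph regions are in the study's tables of regions that passed its limit, for both MLP comparisons. Regions carry a score, 10 times the −log10 of its p from MACS, and the lowest score in each list is 50, a p of 1e-05. A score describes the evidence within its own list and is not a level of methylation. The study's read table puts the MLP library deepest and the C library shallowest, and the part of depth in the scores was not tested. The liver identity of the samples could not be checked against marker genes, since the lists hold no expression values.

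Cops8 encodes a small subunit of the COP9 signalosome, a complex that removes NEDD8 from cullin ubiquitin ligases and thereby controls their activity. Mlph encodes melanophilin, which links Rab27a on pigment granules to the motor myosin Va in melanocytes. On the GRCr8 assembly of RefSeq the protein-coding genes stand in the order Ackr3, Cops8, Col6a3, Mlph, Prlh, Rab17 and Lrrfip1. Col6a3, a chain of type VI collagen, is thus the neighbour between Cops8 and Mlph in that assembly. The gene positions of rn4 were not used, so the genes that the unnamed regions lie in are not given.

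The region annotated to Mlph was the strongest of the interval in both MLP comparisons. It spans chr9:90088630-90091720, which is 3091 bp, and the study's annotation places it downstream of Mlph. That label is uncertain, since the distance to the start site in the same annotation is shorter than the Mlph gene on GRCr8, and the region may lie within the gene. Its score was 3100 in MLP vs. C and 3100 in MLP vs. MLP-F. This is the highest value of both lists and was held by 5 regions in each, so the Mlph region shares the first 5 places and cannot be ordered among them. It was also the longest of the interval, and 31 of the 35998 MLP vs. C regions were longer. No MLP-F vs. C region overlapped it. The nearest lay 11062 bp away (chr9:90102782-90103400) and scored 61.6, below the median of 69.4 in that list.

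The region annotated to Cops8 was second in the interval in both MLP lists. It spans chr9:89753082-89753829, is 748 bp long and is labelled upstream of Cops8. It scored 1769 in MLP vs. C, at place 25 of 35998, and 1483 in MLP vs. MLP-F, at place 41 of 33730. Unlike the Mlph region it was of ordinary length, as the median was 673.5 bp over the MLP vs. C list and 727 bp over the MLP vs. MLP-F list. No MLP-F vs. C region overlapped it either. The nearest, 3149 bp away (chr9:89749219-89749933), had a score of 56.6.

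The study's repeat annotation names tandem and low-complexity sequence beside both strong regions, with a (GAGTG)n repeat for Mlph and a (CAA)n repeat for Cops8. Neither repeat unit, set in tandem, holds a CG dinucleotide, the pair of bases on which the captured mark sits. The annotation searched for the nearest repeat, so the named repeats need not fill the regions, and the sequence of the regions was not used here. The part of repeats in the scores was not tested.

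**Figure D1:**
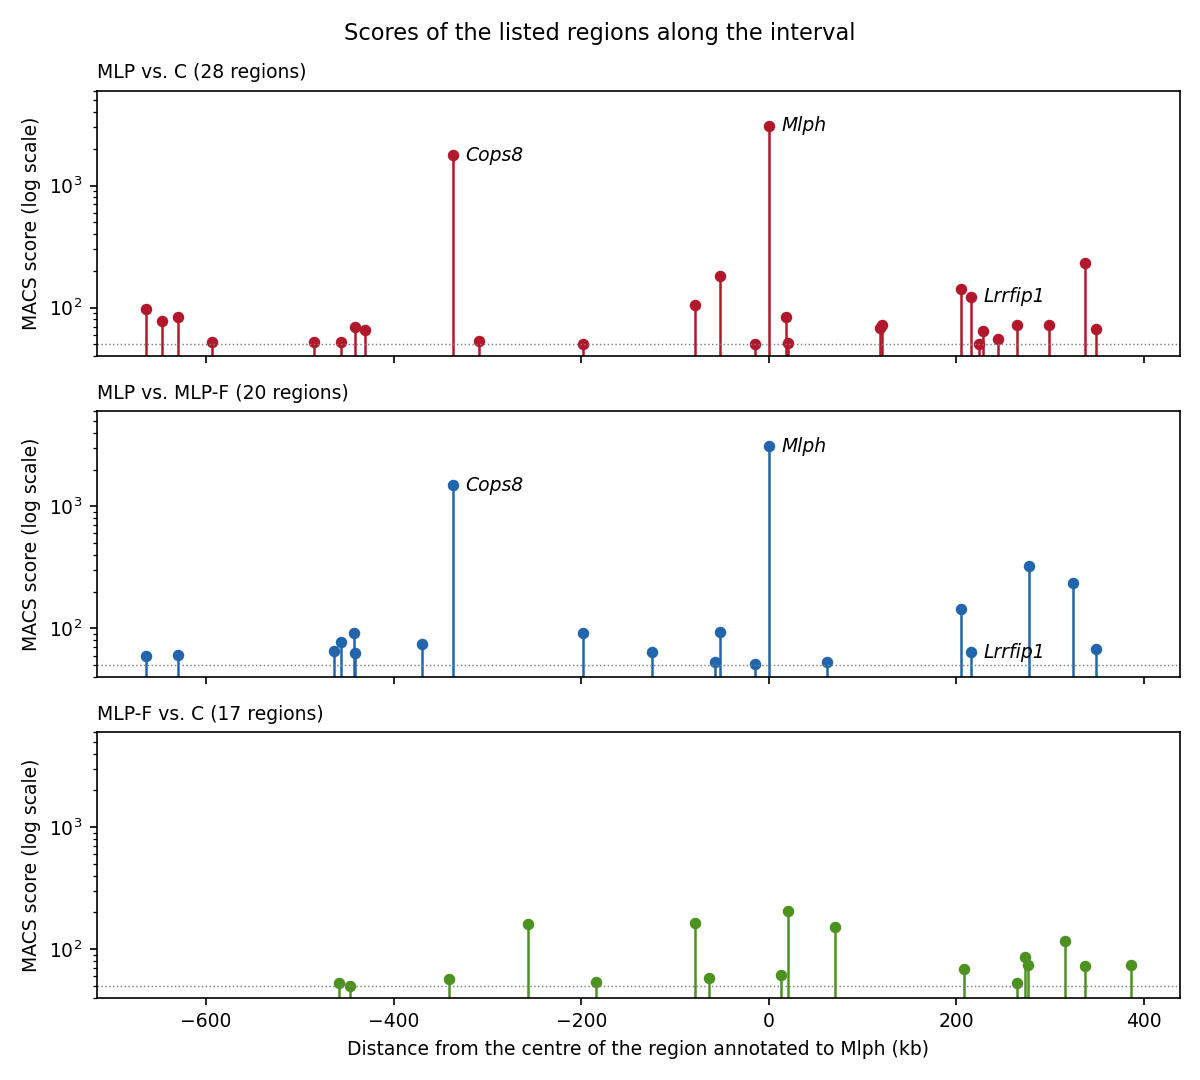
MACS score (log scale) of each listed region against its distance in kb from the centre of the region annotated to Mlph, with 1 panel per list and a dotted line at the lowest score of 50. The Mlph and Cops8 regions stand far above all others in both MLP lists, whereas the MLP-F vs. C regions of the interval reach no higher than 204.

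The 2 strong regions lay 334801 bp apart, and no other region with a score of at least 1000 lay between them in any list. In MLP vs. C there were 5 regions between them with scores from 50.2 to 182, in MLP vs. MLP-F 5 with scores from 51.5 to 93.0, and in MLP-F vs. C 4 with scores from 54.0 to 166. Within their own lists some of these stood high, as the 182 was at place 2901 of 35998 in MLP vs. C, and the MLP-F vs. C regions of 166 and 162 were at places 1034 and 1107 of 25578. Within 50 kb of the Cops8 region the MLP vs. C list held 1 other region, with a score of 52.9, and within 50 kb of the Mlph region it held 3, with scores from 50.7 to 83.5. The MLP vs. MLP-F list held 1 other region around each, with scores of 75.2 near Cops8 and 51.5 near Mlph. Just beyond this limit, at 50.1 kb from the Mlph region, lay chr9:90037772-90038511. It scored 182 in MLP vs. C and 93.0 in MLP vs. MLP-F. In MLP-F vs. C the Mlph flank held regions of 61.6, at 11.1 kb, and of 204, at 19.1 kb, which was the highest score of the interval in that list. After the strong pair the third score of the interval was 234 in MLP vs. C and 322 in MLP vs. MLP-F, both found to the right of Mlph. In both MLP lists the high scores thus stood at 2 separate places, with no score above 182 between them.

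Close pairs of strong regions also occur elsewhere in the lists. With a score of at least 1000 taken as strong, the interval held 2 of 28 MLP vs. C regions (0.186% over the list), 2 of 20 MLP vs. MLP-F regions (0.216%) and 0 of 17 MLP-F vs. C regions (0.0313%). Since the interval was chosen for these 2 regions, nothing is read from the difference. Of 66 strong MLP vs. C regions on placed chromosomes, 18 had another strong region with its centre within 500 kb. In MLP vs. MLP-F this held for 21 of 72, and in MLP-F vs. C for 0 of 5. Chromosome 9 held 6 strong regions in MLP vs. C and 7 in MLP vs. MLP-F, of which the Cops8 and Mlph regions were the only 2 on this chromosome that close together in each list.

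The MLP vs. C list held 28 regions in the interval, with a median score of 70.7 against 77.4 over the whole list. Of these, 7 scored at least 100, where 31.1% of the list did. Apart from the strong pair they were an unnamed region at chr9:90427367-90427818 (234), one at chr9:90037772-90038511 (182), one at chr9:90294417-90295347 (142), the Lrrfip1 region (122) and one at chr9:90010706-90011799 (105). Lrrfip1 encodes a protein known to bind nucleic acids and the actin regulator flightless. Its region lies at chr9:90305442-90306055. It is labelled intronic and is the third region of the interval with a gene name. The other 25 have none in the tables of selected regions.

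In MLP vs. MLP-F the interval held 20 regions with a median score of 71.3, against 81.8 over the list. Of these, 5 scored at least 100, where 36.8% of the list did. Besides Mlph and Cops8 they were chr9:90367708-90368754 with 322, chr9:90414179-90415133 with 234 and chr9:90294417-90295347 with 145. The first pair of these is not listed for MLP vs. C, whereas the last is. In MLP-F vs. C the interval held 17 regions with a median score of 73.3, against 69.4 over the list, and 5 of them scored at least 100, where 19.1% of the list did. The highest was at chr9:90110790-90111424 with 204, at place 559 of 25578. It was followed by chr9:90010800-90011539 with 166, chr9:89832874-89833805 with 162, chr9:90161053-90161468 with 152 and chr9:90405874-90406230 with 116.

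**Figure D2:**
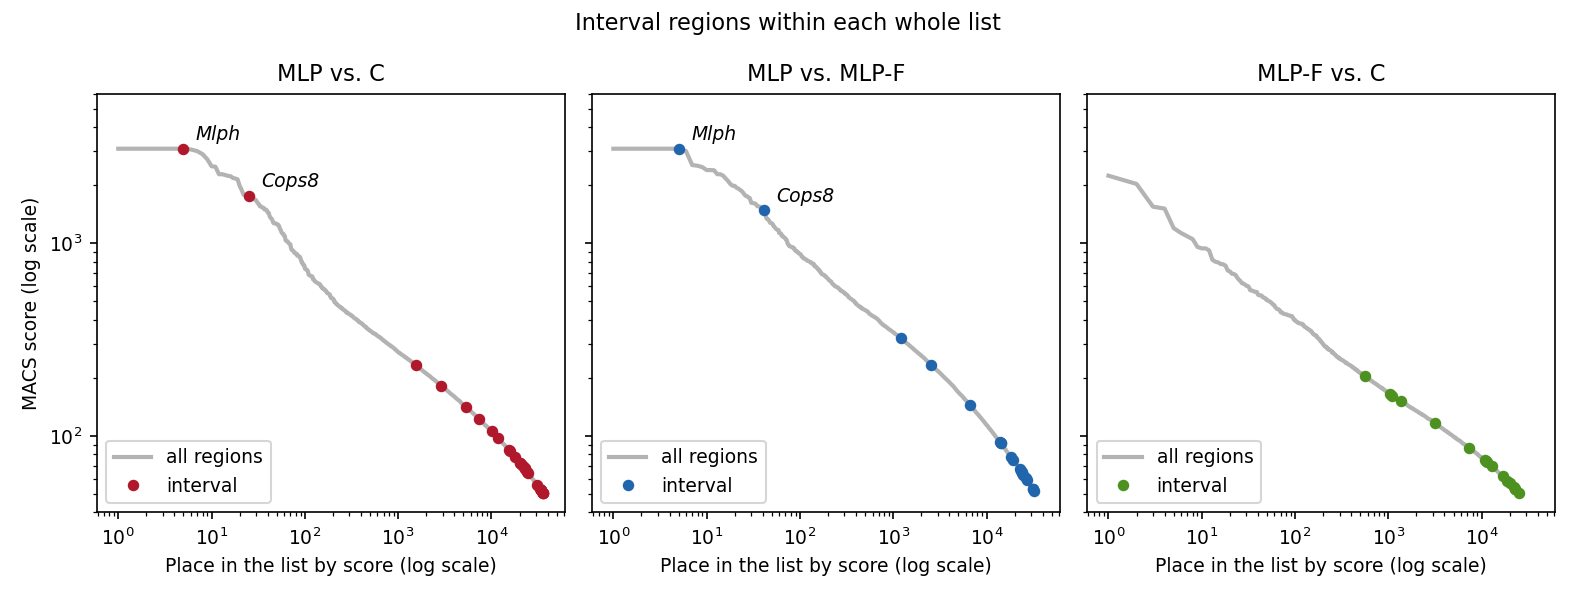
MACS score against place in the list by score, both on log scales, for all regions of each list (grey line) and for those of the interval (points); tied regions share the last of their places. Mlph and Cops8 stand at places 5 and 25 in MLP vs. C and at places 5 and 41 in MLP vs. MLP-F, and the highest MLP-F vs. C region of the interval stands at place 559.

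Presence in more than 1 list was then set out by position. The lists share libraries, with MLP in both MLP lists and C in MLP vs. C and MLP-F vs. C, so presence in 2 of them is no independent evidence. Joined by overlap of at least 1 bp, the 65 entries formed 49 separate loci. Of these, 12 were listed for both MLP comparisons, 4 for MLP vs. C and MLP-F vs. C, 12 for MLP vs. C alone, 8 for MLP vs. MLP-F alone and 13 for MLP-F vs. C alone. No locus was in all 3 lists.

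Among the 28 MLP vs. C regions, 12 were in the MLP vs. MLP-F list too, which is 42.9% where the whole list gave 39.4%. Among the 20 MLP vs. MLP-F regions these 12 made up 60.0%, where the whole list gave 42.1%. In all 12 the start and end were identical in both lists, as they were in all 14194 such overlaps of the series. Both lists have MLP as the group named first. Where that group differs, 0 of the 8144 MLP vs. C regions that overlapped MLP-F vs. C had identical bounds. The identity is therefore not read as evidence. The score was higher against C in 6 of the 12, higher against MLP-F in 4 and equal in 2. The region at chr9:90037772-90038511 had 182 against C and 93.0 against MLP-F, and the Lrrfip1 region had 122 against C and 64.1 against MLP-F. The difference was the other way at chr9:89892064-89892870, with 50.2 against C and 91.7 against MLP-F, and at chr9:89634053-89634613, with 52.1 against C and 77.5 against MLP-F. At chr9:90294417-90295347 the scores were near each other, 142 against C and 145 against MLP-F. Equal scores were found for Mlph, at the highest value of the lists, and at chr9:90438470-90439021, with 67.3 in both. As 5 regions of each list share that highest value, the tie for Mlph does not show equal evidence in both comparisons.

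**Figure D3:**
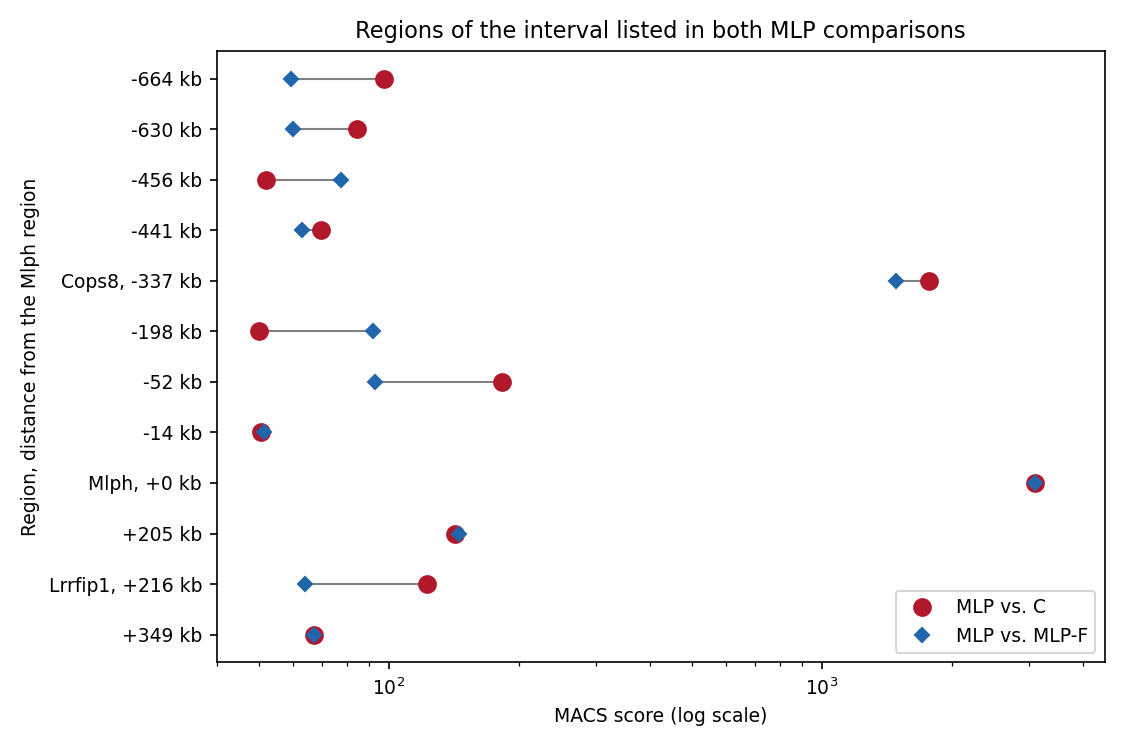
MACS score (log scale) of the 12 regions listed in both MLP comparisons, with circles for MLP vs. C and diamonds for MLP vs. MLP-F; regions are placed by their distance in kb from the Mlph region. Cops8 and Mlph lie at 1483 or more in both comparisons and the other 10 at 182 or less.

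Overlap with MLP-F vs. C was found for 4 of the 28 MLP vs. C regions, where 22.6% of the whole list overlapped. At 2 of the 4 the MLP-F score was the higher. The first, at chr9:90110788-90111382, scored 51.0 in MLP vs. C and 204 in MLP-F vs. C, and lies 19068 bp from the Mlph region. The second, at chr9:90010706-90011799, scored 105 in MLP vs. C and 166 in MLP-F vs. C. At the others MLP vs. C was the higher, with 234 and 73.3 at chr9:90427367-90427818, and 71.7 and 52.9 at chr9:90354138-90355201. None of the 4 was in the MLP vs. MLP-F list. That a region is missing from a list is no evidence of equal methylation in both libraries. Neither the Cops8, the Mlph nor the Lrrfip1 region was among the 4.

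None of the 20 MLP vs. MLP-F regions overlapped an MLP-F vs. C region, where 1.27% of the whole list did. The 8 that were not listed for MLP vs. C had scores from 53.0 to 322. The strongest of them, chr9:90367708-90368754, lies 930 bp from chr9:90366328-90366778, which scored 74.8 in MLP-F vs. C, and the nearest MLP vs. C region is 12507 bp away. The next, chr9:90414179-90415133 with 234, has its nearest MLP-F vs. C region at 7949 bp. Another, chr9:89647294-89647787 with 91.5, lies 742 bp from a region that is in both MLP lists. Regions of different lists thus lay side by side at some places of the interval without overlapping.

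The interval was denser in listed regions than the chromosome as a whole. MLP vs. C had 25.5 regions per Mb in the interval, against 13.4 on chromosome 9 and 12.9 over all placed chromosomes. For MLP vs. MLP-F the values were 18.2 in the interval, 11.4 on chromosome 9 and 12.1 over all. For MLP-F vs. C they were 15.5 in the interval, 10.6 on chromosome 9 and 9.08 over all. The length of each chromosome was taken as the highest listed end. The interval was chosen after the lists had been examined, so these densities are descriptions. The density was not particular to the interval. With 500 kb added on each side of the 1100 kb, the counts were 60 in MLP vs. C, 53 in MLP vs. MLP-F and 36 in MLP-F vs. C. In each list the count thus grew by a larger factor than the length did.

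**Figure D4:**
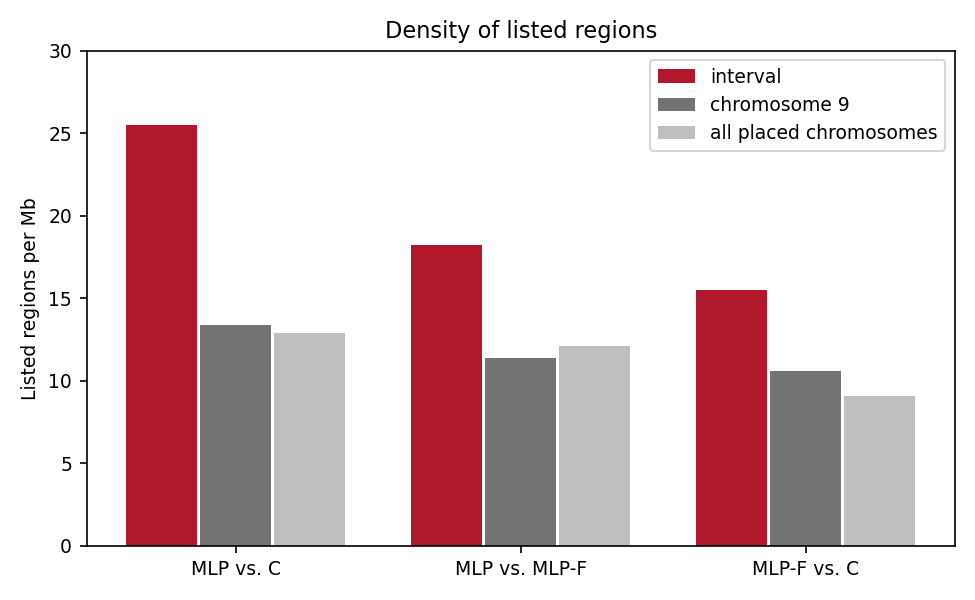
Listed regions per Mb for each list, in the interval (red), on chromosome 9 (dark grey) and over all placed chromosomes (light grey). The interval bars stand at 25.5, 18.2 and 15.5 and are the highest of each list.

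The edges of the interval were set by position and not by score. The last MLP vs. C region outside on the left, chr9:89397446-89398423, scored 218 and the first inside, chr9:89426083-89426540, scored 97.6. On the right the last inside scored 67.3 and the first outside, chr9:90501851-90502356, scored 59.2. For MLP vs. MLP-F the regions just inside scored 59.3 on the left and 67.3 on the right, and those just outside 168 and 59.4. For MLP-F vs. C the regions just inside scored 53.2 on the left and 74.0 on the right, and those just outside 97.6 and 51.1. The strongest regions beside the edges thus lay just outside on the left in each list.

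The partners of both genes were looked up in the study's tables of selected regions. Of 9 COP9 signalosome subunits, Cops8 alone was named there, and the other 8, such as the catalytic subunit Cops5, were not. Of 13 genes of melanophilin-linked transport, Mlph and Sytl2 were named and 11 were not, among them Rab27a and Myo5a. Sytl2 encodes a synaptotagmin-like protein that also binds Rab27a. Its region (chr1:146967484-146968511), labelled upstream of the gene, scored 131 in MLP vs. C and 187 in MLP vs. MLP-F and was not listed for MLP-F vs. C. Over all 23154 protein-coding RefSeq genes of GRCr8, matched by symbol or synonym, 2.92% were named in those tables. The lists hold few genes and include the 2 that chose the interval, so nothing is read from their counts of 1 and 2. The tables name genes for regions that the study selected and for no others, and the 8 and 11 genes not named may still have regions in the deposited lists.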

How the data were processed

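MBD-seq reads of 3 pooled liver libraries (C, MLP, MLP-F) were aligned by the authors to rn4 with Bowtie, keeping a single alignment per read pair, and regions were called with MACS on pairs of libraries. The submitters' processing notes also name CASAVA. Their versions, not given in the sources used here, cannot be stated. The authors deposited 3 lists with a position and a score per region, which is 10 times the −log10 of the MACS p. Depth is not part of the lists. Groups follow the diet labels.

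Starts were converted to 1-based positions. The interval of the rule was applied with an overlap of at least 1 bp. Gene names and repeat words come from the study's annotation by position, and gene order from RefSeq on GRCr8. The overlap code was checked on made-up regions with known answers. Python 3.11.15 and matplotlib 3.10.9 were used. Named are Mlph, Cops8, other genes annotated in the interval, and unnamed regions by position, the 3 highest of each list in full. Further regions and genes, such as Sytl2, Cops5 and the neighbours in gene order, come from lists or were picked after their values were seen. The interval and gene lists were chosen with earlier results of these data known. Alternatives were other interval limits, a score of at least 100, other overlap rules, unplaced sequence and other definitions of a strong pair. The reverse comparisons, such as C over MLP, were not analysed here.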

Additional observations from a re-analysis of the deposited data

How the results depend on the processing

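Of 27 alternatives, 13 left the value within 1.5 times that reported. Counts cannot fall in a wider interval, nor rise in a narrower one or at a higher score limit. The tally is therefore no measure of robustness. With the interval widened by 500 kb on each side the counts were 60 regions in MLP vs. C, 53 in MLP vs. MLP-F and 36 in MLP-F vs. C. With the interval narrowed to 100 kb beyond the strong regions they were 10, 9 and 8 in the same order. At a score of at least 100 they were 7, 5 and 5. With the other list limited to scores of at least 100, 3 of the MLP vs. C regions (Mlph, Cops8 and chr9:90294417-90295347) overlapped MLP vs. MLP-F and 2 overlapped MLP-F vs. C. A reciprocal overlap of 50% or a distance of 1 kb left those counts at 12 and 4. With a score of at least 500 taken as strong, 48 regions had another within 500 kb in MLP vs. C, 124 in MLP vs. MLP-F and 4 in MLP-F vs. C. The Mlph and Cops8 scores do not depend on these choices. No paired analysis was possible because each group has 1 library. The lists give neither reads nor fold, so the size of a difference and its error are unknown.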
